A study of Homo sapiens with 41 samples.

Results

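Of 91305 regions made by merging the 3 control ATAC peak lists of MDA-MB-231 cells (chromosomes 1 to 22 and X), 1669 were open in all 3 lists, lay more than 5 kb from both ends of every protein-coding gene, and overlapped a peak in both control HDAC6 CUT&Tag lists. These 1669 regions, called members, were 12.4% of the 13463 regions that passed the first 2 conditions, called distal open regions here, and 6.64% of the 25139 regions open in all 3 lists. A further 2163 distal open regions had a CUT&Tag peak in 1 list, and 9631 had none and serve as the comparison set. With or without HDAC6 refers here to CUT&Tag peaks only: some regions called without HDAC6 held HDAC6 ChIP peaks. The members were chosen by the peaks of the control ATAC and CUT&Tag lists, so those values at members, and the NextA ATAC lists set against them, are given as description and support nothing. The members nearest the distance limit lay 5021, 5049 and 5066 bp from a gene end, near MAMSTR, DDX43 and BHLHE41. Open regions with HDAC6 just outside it lay 4986 and 4975 bp away, near FOXJ2 and SKOR1.

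MDA-MB-231 is a human triple-negative breast cancer line of epithelial origin. Cells given Nexturastat A (NextA), an HDAC6 inhibitor, at 5 µM for 2 days were set against control cells (Ctrl), and cells with an HDAC6 hairpin (shHDAC6) against cells with a control hairpin (shCtrl). Peak lists of 32 of 41 samples were used, the ChIP and ATAC libraries from 100000 cells each, and the other 9 samples were not analysed here. HDAC6 ChIP had 2 NextA, 2 Ctrl and 2 shHDAC6 lists, pan-acetyl ChIP (an antibody to histone H3 acetylated at several lysines) 2 NextA and 2 Ctrl lists, and RNA polymerase II (PolII) ChIP 2 NextA, 2 Ctrl, 2 shHDAC6 and 2 shCtrl lists. ATAC had 3 lists in each of the same 4 conditions, and HDAC6 CUT&Tag had 2 Ctrl lists. Replicate 1 of the NextA and Ctrl HDAC6 ChIP was made with a CST antibody and replicate 2 with one from Novus. The shHDAC6 HDAC6 ChIP lists and the CUT&Tag lists used Novus. Peak names in 2 lists go against their labels. Those of the Novus list labelled NextA begin with the letters MNC, as in the shCtrl PolII lists, whereas the replicate 2 NextA pan-acetyl and PolII lists begin with MNA. Those of the second CUT&Tag list, labelled Ctrl, hold the letters shc. Both were kept as labelled, and the main comparisons are also given without them. The labels used here give no clone and no statement that replicates are separate cultures, so the spread between lists may be technical. Neither RNA nor protein was measured in these lists, so the depth of the knockdown was not seen.

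The label "distal" held for the ends of protein-coding genes but not for transcription as a whole. Outside chromosome 8, whose start sites were not used here, 677 of 1604 members (42.2%) held an annotated transcript start or the end of a non-coding gene, against 570 of 9145 distal open regions without HDAC6 (6.23%). A listed start inside a protein-coding gene, more than 5 kb from both its ends and called an inner start here, lay in 313 members (19.5%) and in 141 regions without HDAC6 (1.54%). With membership by the first CUT&Tag list alone, there were 2686 members, of which 789 of 2574 (30.7%) held an annotated start or gene end and 348 (13.5%) an inner start.

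HDAC6 removes acetyl groups mainly from cytoplasmic proteins such as tubulin and cortactin, and a fraction of it has also been found in the nucleus. Open chromatin away from gene ends usually marks enhancers, where transcription factors bind and histones are acetylated, or the start of transcripts that a gene list does not place at a gene end. ATAC and CUT&Tag both use the Tn5 transposase. In CUT&Tag an antibody directs it to the target, but it can also cut open DNA elsewhere. A peak list records where a caller found enrichment, so a region without a peak is one where none was called. In bulk samples, a peak in fewer cells and a weaker peak in every cell cannot be told apart.

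Windows of 300 bases around a listed start in 6 members are shown because these members either had peaks in the most lists or were among the highest in CUT&Tag, and their letters show the GC-rich composition described next. Each runs 5′ to 3′ from 250 bases before the start to 50 after it, in RefSeq build GRCh38.p14. Capitals mark any match to the 12 motifs searched, which in these 6 windows were SP/KLF, TEAD, CRE and CTCF letters.
CANX (chr5:179698537-179698836, plus strand): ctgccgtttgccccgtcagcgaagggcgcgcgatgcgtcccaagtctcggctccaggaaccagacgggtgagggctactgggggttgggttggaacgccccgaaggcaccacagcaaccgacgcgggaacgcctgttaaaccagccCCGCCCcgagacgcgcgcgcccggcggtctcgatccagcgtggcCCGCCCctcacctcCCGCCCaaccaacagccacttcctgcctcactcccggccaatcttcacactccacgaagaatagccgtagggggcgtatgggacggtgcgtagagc
SLC25A28 (chr10:99620390-99620689, minus strand): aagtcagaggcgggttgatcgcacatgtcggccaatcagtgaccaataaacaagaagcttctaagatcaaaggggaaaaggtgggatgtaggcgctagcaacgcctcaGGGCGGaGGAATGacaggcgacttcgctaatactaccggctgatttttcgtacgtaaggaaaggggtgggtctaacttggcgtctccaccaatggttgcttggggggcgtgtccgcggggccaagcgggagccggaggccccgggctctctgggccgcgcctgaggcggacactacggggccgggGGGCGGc
KANSL1 (chr17:46194001-46194300, minus strand): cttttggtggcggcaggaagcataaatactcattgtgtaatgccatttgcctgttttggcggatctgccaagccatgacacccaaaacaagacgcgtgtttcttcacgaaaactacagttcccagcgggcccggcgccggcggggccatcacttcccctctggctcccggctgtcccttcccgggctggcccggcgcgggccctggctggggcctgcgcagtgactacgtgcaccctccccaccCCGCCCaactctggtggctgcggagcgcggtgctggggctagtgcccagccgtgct
LUC7L2 (chr7:139359644-139359943, plus strand): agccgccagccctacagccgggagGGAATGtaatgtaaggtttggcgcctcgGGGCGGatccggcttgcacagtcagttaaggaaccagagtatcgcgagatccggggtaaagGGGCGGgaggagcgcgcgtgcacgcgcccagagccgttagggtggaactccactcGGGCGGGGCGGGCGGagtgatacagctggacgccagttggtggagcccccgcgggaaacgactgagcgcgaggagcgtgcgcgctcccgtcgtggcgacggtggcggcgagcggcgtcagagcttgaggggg
MIRLET7A1HG (chr9:94166008-94166307, plus strand): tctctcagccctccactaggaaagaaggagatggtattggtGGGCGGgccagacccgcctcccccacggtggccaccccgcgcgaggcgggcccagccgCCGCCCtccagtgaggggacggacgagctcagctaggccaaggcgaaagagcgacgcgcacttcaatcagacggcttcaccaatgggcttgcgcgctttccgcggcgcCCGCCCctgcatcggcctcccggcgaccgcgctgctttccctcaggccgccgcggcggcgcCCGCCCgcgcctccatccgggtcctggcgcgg
LINC01409 (chr1:778548-778847, plus strand): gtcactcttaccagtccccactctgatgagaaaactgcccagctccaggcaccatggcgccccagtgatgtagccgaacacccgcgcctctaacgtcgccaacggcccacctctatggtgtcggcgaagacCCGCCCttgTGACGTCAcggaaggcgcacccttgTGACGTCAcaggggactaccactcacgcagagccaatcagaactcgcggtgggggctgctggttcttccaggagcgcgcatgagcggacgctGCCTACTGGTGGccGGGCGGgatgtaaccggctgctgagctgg
CANX encodes calnexin, a chaperone of the endoplasmic reticulum. SLC25A28 encodes a mitochondrial iron carrier, KANSL1 a subunit of a histone acetyltransferase complex, and LUC7L2 a splicing factor. MIRLET7A1HG is the host transcript of a cluster of let-7 miRNAs, and LINC01409 is a long non-coding RNA.

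The starts inside members were richer in GC and CpG than starts inside distal open regions without HDAC6. Across 700 windows in members the median GC content was 65.3%, against 54.0% in 429 windows in regions without HDAC6 and 58.7% in all 34789 listed windows. The median number of CpG dinucleotides per window was 25 in members, against 8 in regions without HDAC6 and 14 in all windows. The SP/KLF letters GGGCGG were in 67.0% of member windows, against 35.2% without HDAC6 and 44.9% of all windows. The CRE letters TGACGTCA were in 4.71% of member windows, against 1.40% and 1.84%. AP-1 letters (TGANTCA) ran the other way. They were in 7.43% of member windows and 28.7% of windows without HDAC6, with 7.69% of all windows. GATA letters (AGATAA) were in 4.86% of member windows, against 11.2% without HDAC6 and 10.4% of all. The other letters searched were GGAATG (TEAD), TGTGGTT (RUNX), CCGGAAG (ETS), CACGTG (E-box), TTGCNNAA (C/EBP) and TGTTTAC (FOX), with the longer NF-kB and CTCF motifs. Of these, TEAD letters were in 12% of member windows, against 18.9% without HDAC6 and 14.1% of all. ETS letters were in 13.7%, against 8.16% and 10.2%. Both strands were searched, some motifs can share letters, neighbouring windows of 1 gene can overlap, and a match to letters is not evidence of a bound factor. Windows were not matched for GC content, so these differences in letters cannot be told apart from the difference in base composition. The sets also differed in kind of start. Inner starts lay in 313 members and lncRNA starts in 172, against 141 and 243 regions without HDAC6. The windows cover starts only: the sequence of members without a listed start was not searched.

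**Figure D1:**
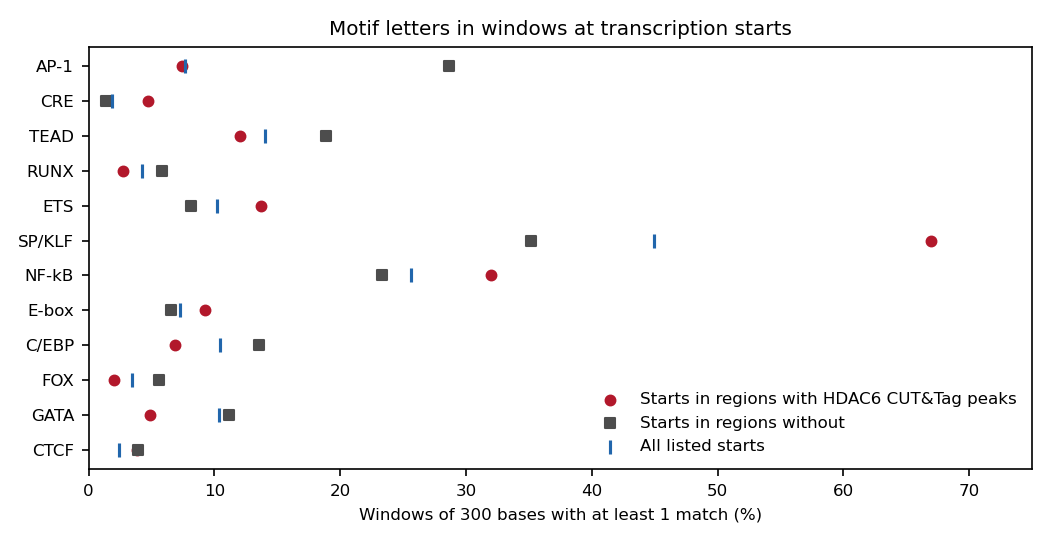
Share of 300-base windows at transcription starts with at least 1 match to each motif's letters (x axis, %), for 700 starts in members (red circles), 429 starts in distal open regions without HDAC6 (grey squares) and all 34789 listed starts (blue ticks). SP/KLF letters stand highest in member windows at 67.0%, and AP-1 letters are at 28.7% in windows without HDAC6, above the 7.43% of member windows and 7.69% of all. Windows were not matched for GC content.

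Small RNA genes were among the members. Outside chromosome 8, tRNA genes lay in 61 members (3.80%) and in 4 regions without HDAC6 (0.0437%). Of 443 tRNA genes on all chromosomes used, 179 lay in an open region and 93 in a distal open region, and 81 of those 93 lay in a member. By the letter in the gene symbol, the most frequent were alanine (A) with 8 genes and leucine (L) and proline (P) with 7 each. Transfer RNAs carry amino acids to the ribosome and are made by RNA polymerase III. Their members gathered on chromosome 6, where members less than 100 kb apart formed runs of 9 members (28728552 to 29017371, 7 of them with a tRNA gene), 8 members (26956060 to 27296676, 6 with one) and 8 members (27478518 to 27793079, 7 with one). Other small RNA genes lay in 23 members (1.43%) and in 5 regions without HDAC6 (0.0547%). Among them were variant U1 small nuclear RNA genes on chromosome 1, such as RNVU1-15, RNVU1-14, RNVU1-7 and RNVU1-30, which encode parts of the splicing machinery. Most members had no neighbour that close: of 1414 runs, 1221 held a single member.

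Starts of long non-coding RNAs lay in 172 members (10.7%) and in 243 regions without HDAC6 (2.66%). Pseudogene ends lay in 58 members (3.62%) and in 65 regions without HDAC6 (0.711%). The remaining 927 members (57.8%) held no annotated start or gene end, 394 inside a protein-coding gene and 533 between them. Regions without HDAC6 were in this class in 93.8% of cases. Members were also wider, with a median of 1149 bp against 837 bp, and the median of their mean control ATAC percentile, the rank of a peak's fold within its list, was 73.6 against 58.5. The share of distal open regions that were members was highest on chromosomes 19 (26.5%) and 22 (21.8%) and lowest on chromosome 18 (7.51%).

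**Figure D2:**
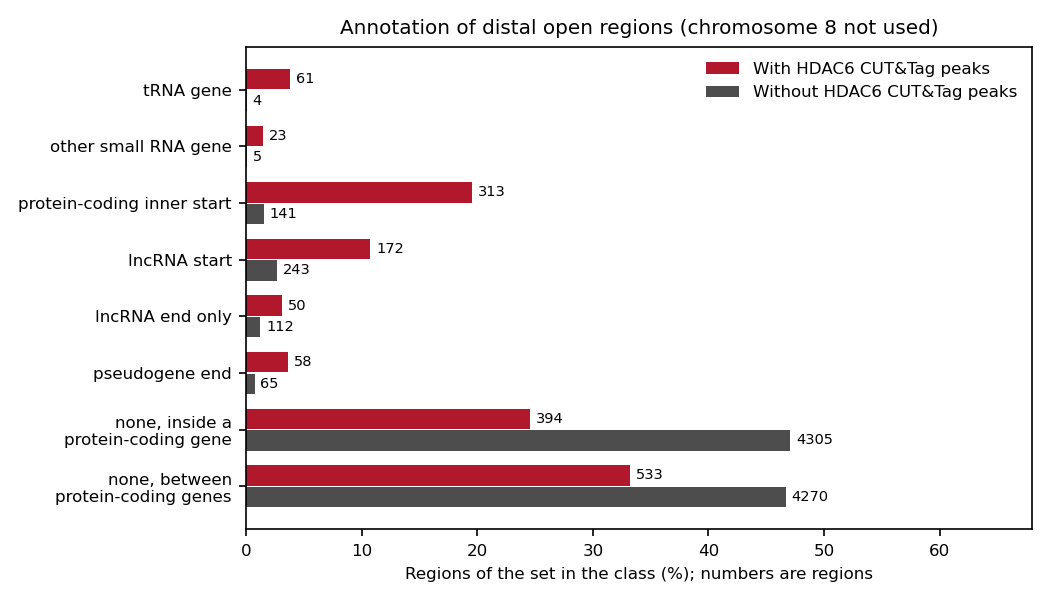
Share of each set in 8 annotation classes (x axis, %), for members (red) and distal open regions without HDAC6 (grey), with the number of regions beside each bar. Inner starts make up 19.5% of members and 1.54% of regions without HDAC6.

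HDAC6 ChIP, a second assay, marked members in control cells more often than distal open regions without CUT&Tag peaks, to an extent that depended on the antibody. Against open regions as a whole, this held for the CST list but not for the Novus list. The CST list had a peak at 1075 members (64.4%) and the Novus list at 197 (11.8%). Distal open regions without HDAC6 CUT&Tag peaks had them in 10.8% and 3.16% of cases, and all distal open regions in 20.8% and 4.73%. Of all 25139 open regions, which include those near gene ends, the CST list marked 11034 (43.9%) and the Novus list 3019. The Novus share of all open regions was thus slightly above that of members. Novus was also the antibody of the CUT&Tag lists. Both ChIP lists marked 167 members (10.0%), and neither marked 564 (33.8%). The CST peak was present at 86.0% of the 841 members with PolII in all 8 lists and at 21.3% of the 235 members with PolII in none. Regions without HDAC6 CUT&Tag peaks showed the same order, 62.1% and 6.05%. By annotation, the CST list marked 91.3% of members with another small RNA gene, 88.2% of those with an inner start, 81.4% of those with a lncRNA start, 75.4% of those with a tRNA gene and 50.2% of those with no annotation.

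After NextA, HDAC6 ChIP peaks were at few members. The CST list marked 64 members (3.83%) and the Novus list labelled NextA 2 (0.120%). The mean share was 1.98% ± 2.63 in NextA lists and 38.1% ± 37.2 in Ctrl lists (SD, n = 2 each), a difference of -36.1 percentage points. These 2 lists per group differ in antibody as well as replicate. The difference was -60.6 points within CST and -11.7 points within Novus, and -34.3 points without the Novus list labelled NextA, where 150 members were again lost and 2 gained. A peak is called lost at a region when all control lists have it and the treated lists do not, and gained in the reverse case. By this rule 150 members (8.99%) lost their peak and 0 gained one. The background was 2.25% lost among all distal open regions and 3.66% among all merged peaks of the comparison, and 0.779% among distal open regions without HDAC6. Open regions with HDAC6 within 5 kb of a protein-coding gene end lost it in 18.7% of cases. Only regions with a peak in both Ctrl lists could lose it. Of these, 150 of 167 members did, beside 303 of 327 distal open regions and 75 of 77 regions without HDAC6. The shares lost thus follow how often both Ctrl lists held a peak. Of the 1075 CST peaks at members, 62 (5.77%) were still listed after NextA, 30 of 276 at inner starts (10.9%) and 0 of 46 at tRNA genes, against 7.21% of all peaks of that list. Those with the strongest control peaks were kept more often, 12.6% in the highest quartile of control percentile and 1.49% in the lowest. The lists were of very unequal length, 3256 and 235 peaks with NextA against 28590 and 63833 in Ctrl. With the 235 strongest peaks kept in every list, shares were 0.120% with NextA and 0.180% in Ctrl, a difference of -0.0599 points with 0 lost. Lists that short let few members hold a peak in either group. At a −log10 q of at least 5 it was -0.210 points, with 0 lost. With membership by the first CUT&Tag list alone it was -27.3 points, with 167 lost. The difference was -9.83 points without the Ctrl CST list and -62.4 points, with 1011 members lost, without the Ctrl Novus list. Among shHDAC6 cells, for which no shCtrl HDAC6 ChIP list was used, the Novus lists marked 36 and 24 members (2.16% and 1.44%), beside 0.934% and 1.05% of regions without HDAC6.

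Per region, Fisher's exact test on presence over lists, adjusted by Benjamini-Hochberg, cannot go below p = 0.333 for 2 lists against 2 or p = 0.1 for 3 against 3. In the 5 comparisons whose lists did not choose the members it called 0 regions, and 0 regions had an unadjusted p under 0.05. Lost and gained counts are therefore descriptions of the lists.

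Pan-acetyl peaks appeared at many members after NextA. The 2 NextA lists marked 1053 (63.1%) and 598 (35.8%) members, and the 2 Ctrl lists marked 55 (3.30%) and 223 (13.4%). The groups did not overlap in these shares, which averaged 49.5% ± 19.3 with NextA and 8.33% ± 7.12 in Ctrl (SD, n = 2 each), a difference of 41.1 points. Regions without HDAC6 had 12.4% ± 5.22 with NextA and 2.08% ± 2.75 in Ctrl. The groups did not overlap there either, with 16.1% and 8.73% against 0.135% and 4.03%. Nor did they at all open regions, with 50.1% and 28.9% against 3.76% and 12.3%. Gained peaks were at 301 members (18%) and lost ones at 0, beside a background of 4.11% gained among distal open regions and 3.69% among all merged peaks. The gain was not particular to members. Open regions with HDAC6 within 5 kb of a protein-coding gene end gained a peak more often, in 2199 of 6196 cases (35.5%). The lists held 28473 and 61186 peaks with NextA and 1418 and 41411 in Ctrl. At equal length, 1418 peaks each, the difference was 0.449 points, with means of 2.76% with NextA and 2.31% in Ctrl and 1 member gained, again a setting that leaves few members with a peak in any list. With membership by the first CUT&Tag list alone the difference was 33.6 points, with 349 gained. At a −log10 q of at least 5 it was 5.21 points with 0 gained. Without the second NextA list, 831 members gained a peak. With NextA, members at inner starts had pan-acetyl peaks in 93.0% and 57.2% of cases, those at tRNA genes in 70.5% and 60.7%, and those with no annotation in 48.5% and 25.2%.

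**Figure D3:**
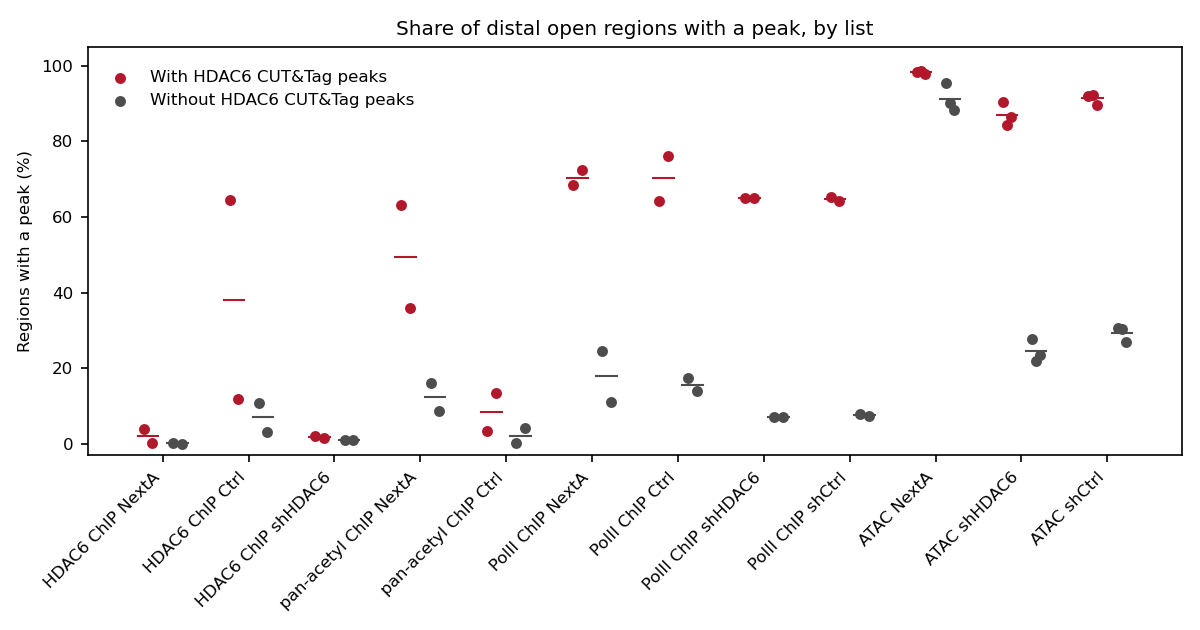
Share of regions with a peak (y axis, %) in each of the lists not used to choose members, for members (red) and distal open regions without HDAC6 (grey). Points are lists and bars are means. HDAC6 ChIP shares are low with NextA and pan-acetyl shares are low in Ctrl, whereas PolII shares at members lie between 64.2% and 76.3% in every condition.

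PolII was on most members in every condition. The 2 NextA lists marked 68.4% and 72.3% of members and the 2 Ctrl lists 64.2% and 76.3%, so the groups overlapped and differed by 0.120 points. With 1 list left out, this difference ran between -5.90 and 6.14 points. The 2 shHDAC6 lists marked 65.0% and 64.9%, and the 2 shCtrl lists 65.4% and 64.2%, a difference of 0.150 points. It was 2.13 points at equal list length, 3.86 points at a −log10 q of at least 5 and -0.633 points with membership by the first CUT&Tag list alone, so its direction depends on these settings. Regions without HDAC6 had PolII in 24.5% and 11.2% of cases with NextA, 17.4% and 13.9% in Ctrl, 7.1% and 7% in shHDAC6 and 7.77% and 7.39% in shCtrl. The lowest list at members was above the highest list at regions without HDAC6. PolII was in all 8 lists at 841 members (50.4%) and 314 regions without HDAC6 (3.26%), and in no list at 235 members. With NextA, 3 members lost PolII, near RAI1, ZNF131 and ZNF846 (background 0.186% of distal open regions and 0.102% of all merged peaks). Of regions with PolII in both Ctrl lists, these were 3 of 972 members, beside 25 of 2024 distal open regions. Another 5 members gained PolII, inside SKI, SH3PXD2B and VPS37B, 83181 bp from ENC1 and 93107 bp from UBE2E2 (background 0.357% and 1.12%). With any 1 list left out, 3 lost became up to 71 and 5 gained up to 81. With shHDAC6, 25 members lost PolII (1.5%, background 1.05% and 7.87%) and 30 gained it (1.80%, background 0.817% and 3.32%). PolII could be lost only where both shCtrl lists held it. Of such regions, 25 of 1051 members lost it, beside 142 of 2259 distal open regions. Regions without HDAC6 lost it in 83 of 653 cases, so members that could lose it did so less often than these. Open regions with HDAC6 within 5 kb of a gene end lost it in 16 of 5974. Median percentiles of shCtrl PolII peaks were 66.4 and 65.6 at members and 42.1 and 41.0 at regions without HDAC6. Whether peak strength bears on these shares was not tested. Gains ran the other way, at 1.80% of members and 0.571% of regions without HDAC6. A gain required no shCtrl peak, and members held PolII in shCtrl more often. The losses of highest percentile lay inside ANKRD33B and DIDO1, and 6171, 77849 and 12264 bp from ends of PARD6B, NDRG1 and ZSCAN2. The gains of highest percentile lay inside MYOM2 and at the lncRNA start LOC105373928. Others were 190275 bp from an end of C12orf75, 256251 bp from BAMBI, a gene of a TGF-beta pseudoreceptor, and 26946 bp from STX16. Each of these named gains also had a PolII peak in the second Ctrl list, so they were gains over shCtrl only. Lost members numbered 42 without the second shCtrl list. The hairpin difference in the PolII share was -0.677 points in the 960 members more than 5 kb from the ends of every gene. Open regions with HDAC6 within 5 kb of a protein-coding gene end had PolII in 94.6% and 98.4% of cases in Ctrl.

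By annotation, PolII in the 2 Ctrl lists was on 93.9% and 98.1% of members with an inner start, 83.7% and 93.0% with a lncRNA start, 55.7% and 91.8% with a tRNA gene and 95.7% and 100% with another small RNA gene. Members with no annotation had 49.7% and 62.1%, against 15.7% and 11.9% of regions without HDAC6 and with no annotation. The difference in PolII between members and regions without HDAC6 was 54.6 points over all regions, 53.0 averaged within quartiles of control ATAC percentile, 42.7 within quartiles of width, 42.1 in unannotated regions alone and 41.6 with membership by the first CUT&Tag list alone. In the quartile of lowest ATAC percentile, PolII was on 68.8% of members against 15.9% of regions without HDAC6, and in the highest quartile on 73.5% against 19.2%. Shares were higher at wider regions in both sets, with 40% of members against 10.9% in the narrowest quartile and 78.0% against 25.7% in the widest.

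**Figure D4:**
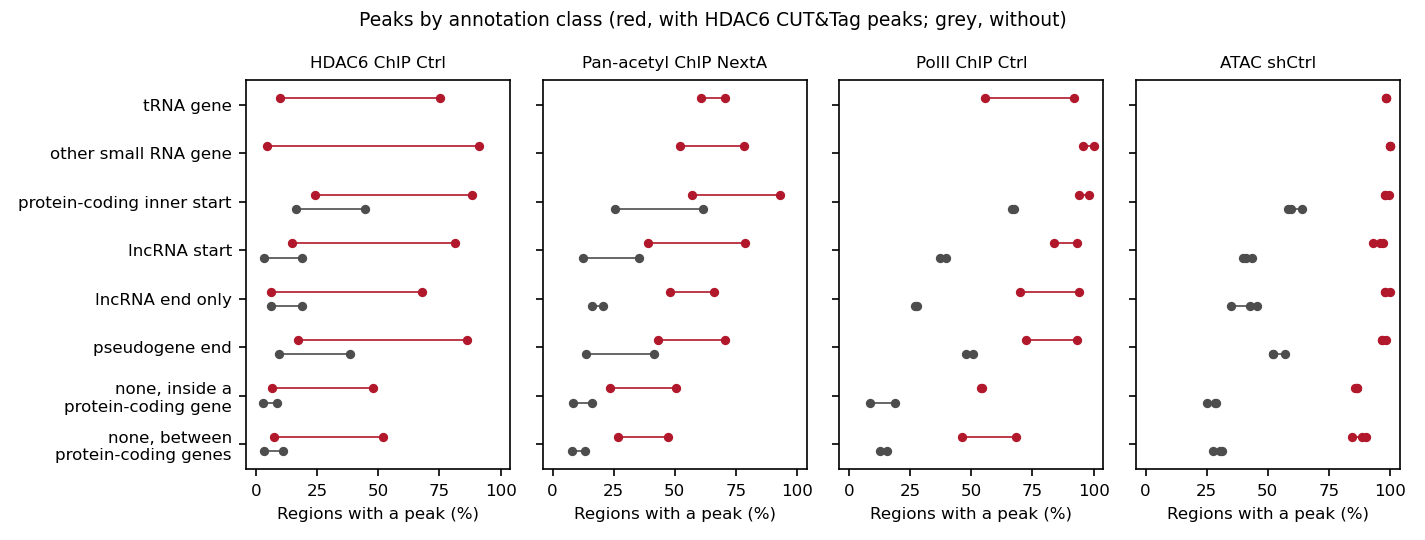
Share of regions with a peak (x axis, %) by annotation class (rows), in 4 conditions (panels), for members (red) and distal open regions without HDAC6 (grey). Points are lists, lines join the lowest and highest list, and the 2 small RNA classes are not drawn for regions without HDAC6, which held 4 and 5. PolII at members is higher at inner starts, 93.9% and 98.1%, than at unannotated members.

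Members were listed as open in most ATAC lists of the other conditions. ATAC peaks were at 98.3%, 98.7% and 97.9% of members with NextA, the Ctrl lists being at 100% by the choice of members. With NextA, 1 member lost its ATAC peak (background 0.319% of distal open regions and 0.0597% of all merged peaks) and 0 gained one (background 0% and 0.497%). The choice of members sets these counts. In hairpin cells, which did not choose the members, ATAC peaks were at 90.5%, 84.5% and 86.4% of members in shHDAC6 and 92.0%, 92.4% and 89.8% in shCtrl. The groups overlapped, with means of 87.1% ± 3.06 and 91.4% ± 1.42 (SD, n = 3 each) and a difference of -4.25 points. Regions without HDAC6 differed by -4.89 points, 24.4% ± 3.05 in shHDAC6 and 29.3% ± 2.04 in shCtrl. At equal list length the difference at members was -0.959 points. The ATAC peak was lost at 17 members (1.02%, background 0.876% of distal open regions and 0.957% of all merged peaks) and gained at 2 (0.120%, background 0.126% and 0.342%). Only regions with the peak in all 3 shCtrl lists could lose it, and members among them did so less often than regions without HDAC6. The peak was lost at 17 of 1420 such members, 118 of 4251 distal open regions and 71 of 1741 regions without HDAC6. Open regions with HDAC6 within 5 kb of a gene end lost it in 4 of 5907 cases. Median percentiles of shCtrl ATAC peaks were 73.1, 72.9 and 70.9 at members and 51.3, 51.5 and 48.9 at regions without HDAC6. Whether peak strength bears on these shares was not tested. The ATAC peak was lost at 35 members without the first shHDAC6 list and at 28 without the third. With membership by the first CUT&Tag list alone it was lost at 35 of the 2686 members. The losses of highest percentile lay inside AGAP1, at the pseudogene RNU6-951P, and 69697, 12495 and 134158 bp from ends of KCNK1, CFAP299 and FOXD1. The gains were at the UNKL inner start and 11871 bp from RNF212. Both gained regions were open in all 3 Ctrl lists by the choice of members, so they were gains over shCtrl only. Peaks in all 12 ATAC lists were at 1240 members (74.3%) and 992 regions without HDAC6 (10.3%).

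**Figure D5:**
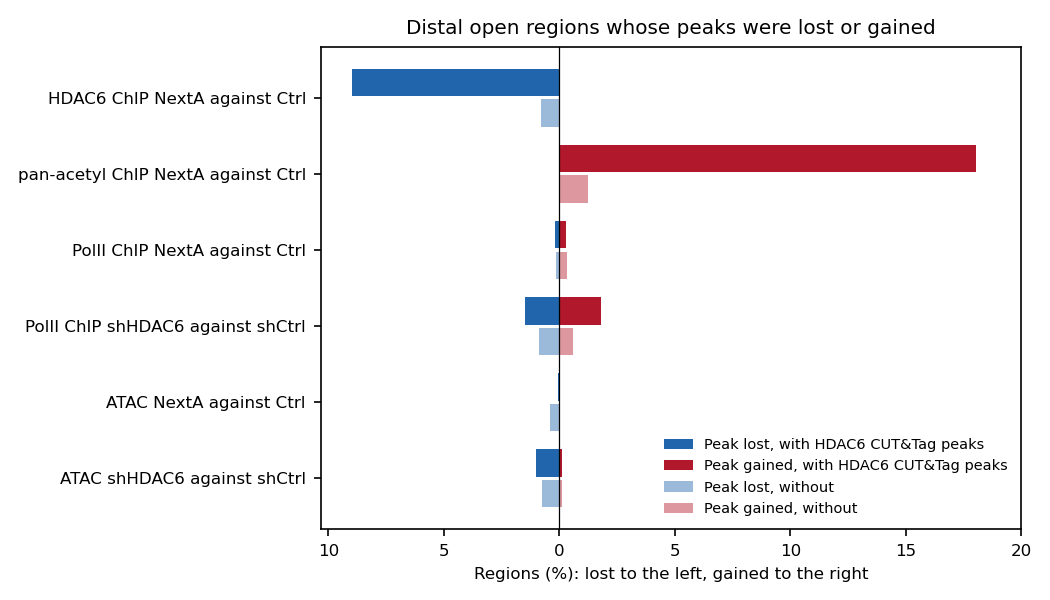
Share of regions whose peak was lost (blue, left of 0) or gained (red, right of 0) in each of the 6 comparisons (rows), for members (full colour) and distal open regions without HDAC6 (pale). The 2 large bars are the loss of HDAC6 ChIP peaks (8.99% of members) and the gain of pan-acetyl peaks (18%). With lists of equal length, which leave few members with a peak in any list, these were 0 lost and 1 gained. Peaks in both Ctrl HDAC6 ChIP lists, which a loss requires, were at 167 members and 77 regions without HDAC6. Of these, 150 and 75 lost them.

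Individual members show what these counts rest on. Values are the authors' fold of the peak over its background in each list, which describe a peak within its list and are not compared between lists. The CANX inner start (chr5:179698160-179699333) had a peak in 29 lists, the most of any member. Its HDAC6 ChIP peak was listed at 3.28 in the NextA CST list and absent from the Novus list labelled NextA, beside 2.70 (CST) and 2.50 (Novus) in Ctrl, and it was in neither shHDAC6 list. Its PolII peak was at 4.39 and 11.1 with NextA, against 5.16 and 16.5 in Ctrl, and at 8.78 and 7.65 with shHDAC6, against 6.76 and 7.75 in shCtrl. Pan-acetyl peaks were at 4.76 and 1.92 with NextA and 3.72 and 2.46 in Ctrl, so CANX was among the members already marked in both control lists. The SLC25A28, KANSL1, MIRLET7A1HG and LUC7L2 starts had peaks in 28 lists each.

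The MIRLET7A1HG start (chr9:94165788-94167347) was a member that lost HDAC6 ChIP peaks. They were absent from both NextA lists and at 3.82 (CST) and 2.61 (Novus) in Ctrl. Its PolII peak stayed listed, at 8.83 and 11.9 with NextA against 8.86 and 10.6 in Ctrl. The hairpins of let-7a-1, let-7f-1 and let-7d start 8610, 9000 and 11487 bp beyond the region's end. Their mature sequences from RefSeq (GRCh38.p14) are shown with the seed, bases 2 to 8, in capitals, because the 5p arms share 1 seed.
hsa-let-7a-5p: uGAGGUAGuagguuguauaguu
hsa-let-7f-5p: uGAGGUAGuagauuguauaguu
hsa-let-7d-5p: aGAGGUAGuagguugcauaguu
Let-7 miRNAs are known repressors of growth-promoting mRNAs. Their levels were not measured here. In addition, 10 other miRNA hairpins lay in members, among them MIR7845 at an inner start near KLF7 with peaks in 28 lists, MIR4449 with 26 and MIR1915 with 25.

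Other lost HDAC6 ChIP members of highest percentile held the VRK2 inner start, in a kinase gene (3.66 in the CST and 2.72 in the Novus Ctrl list), the KLHL32 inner start, the lncRNA start LOC105372952 and the end of LINC00240. The gained pan-acetyl members of highest percentile held the lncRNA start LOC100630923, the HNRNPF inner start, which encodes an RNA-binding splicing regulator, the PPRC1 inner start, which encodes a coactivator of mitochondrial gene expression, an unannotated member inside IPO5 and the end of LOC100134868. At the HNRNPF inner start the pan-acetyl peak was at 4.97 and 2.91 with NextA and in neither Ctrl list, while PolII was listed in all 8 lists. The 1 member whose ATAC peak was lost with NextA held the start of LINC02086, 19629 bp from HOXB9. Its ATAC peak was in none of the 3 NextA lists, against 6.20, 4.29 and 5.51 in Ctrl, and it was present in all 6 hairpin lists.

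The members of highest CUT&Tag percentile included regions that stood apart from the rest. No region was removed for repeats or poor mapping, so high folds at these are not by themselves evidence of HDAC6 binding. A member on chromosome 3 (chr3:93470260-93470888), 402163 bp from the nearest protein-coding gene end (PROS1), had HDAC6 ChIP folds of 69.5 in the NextA CST list and 70.2 in the Ctrl CST list. The same region had a peak in 1 shHDAC6 list at 4.88. A member on chromosome 1 (chr1:633859-634197), 118 bp from the mitochondrial pseudogene MTATP8P1, had 16.8 with NextA and 15.8 in Ctrl. Each had PolII in 1 Ctrl list, at 1.41 on chromosome 3 and 1.53 on chromosome 1, and in no other list. A member on chromosome 21 (chr21:8234073-8234828) had HDAC6 ChIP folds of 3.46 in the NextA CST list and 2.73 (CST) and 3.02 (Novus) in Ctrl. Its fold was 7.07 in 1 shHDAC6 list, and it had PolII in no list. By contrast, the RNVU1-15 member (chr1:144412049-144413415) had PolII in all 8 lists, at 13.6 and 28.6 with NextA against 7.66 and 32.2 in Ctrl. Its HDAC6 ChIP peak was in no NextA list and at 3.68 in the Ctrl CST list.

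Genes named in lists of breast cell identity and signalling were rarely the nearest gene to a member. Of 23 AP-1 and YAP pathway genes, 5 had 7 members (0.419% of members, against 0.280% of regions without HDAC6). A member 19084 bp from FOS, an AP-1 subunit, had PolII in 1 of 2 NextA lists (4.14) and both Ctrl lists (3.36 and 5.62). A member inside ATF3, a stress-induced transcription factor, had PolII in all 8 lists, at 5.50 and 13.0 with NextA against 6.36 and 11.9 in Ctrl, and gained pan-acetyl peaks at 4.27 and 2.23. The start of ELDR, a lncRNA 42826 bp from an end of EGFR, lost HDAC6 ChIP peaks, which were at 3.09 and 2.21 in Ctrl. Basal and mesenchymal genes had 3 members (0.180%, against 0.478%), epithelial and luminal genes 5 (0.300%, against 0.125%) and growth signalling genes 8 (0.479%, against 0.758%). Markers of leukocytes had 1 member (0.0599%, against 0.0415%), at the TMCO6 inner start 5283 bp from CD14. Markers of neurons had 2 (0.120%, against 0.145%). Chromatin enzyme genes had 3 (0.180%, against 0.166%), inside HDAC5, 27313 bp from HDAC11 and 23772 bp from KAT7. The member nearest KAT7 was at the FAM117A inner start.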

How the data were processed

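Groups came from the sample labels. ChIPseeker 1.28.2, deepTools 3.5.1, SAMtools 1.13, Trim Galore 0.6.7, MACS2 2.2.7.1 and Bowtie2 2.4.4, and the build hg38, are listed in the submitters' processing notes with no roles. The deposited lists hold peaks per sample, with no header. The authors' deposited values are a score, a linear fold (a ratio over background) and the −log10 of p and of q. ATAC lists also hold a deposited summit offset, which was not used. Read depth is not given. From the peak names and scores, some lists were scored on q and carry every peak number, and others were scored on p and carry 0.103% to 88.5% of the numbers up to their highest.

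Peaks of chromosomes 1 to 22 and X were used, and repeated lines at 1 interval were merged. Presence needed an overlap of 1 bp. A percentile is the rank of the authors' fold within its list. Gene ends, listed starts and sequences came from RefSeq GRCh38.p14. Per-region presence was tested by Fisher's exact test, two-sided, with Benjamini-Hochberg adjustment (scipy 1.17.1, pandas 2.3.3, Python 3.11.15). The scripts were tested on simulated intervals. Members, lists, motifs and named members were chosen with earlier results of these data known. Named members were, by rule, the 5 highest in CUT&Tag, the 5 in the most lists, up to 5 lost and 5 gained per comparison, the 5 widest, up to 3 per gene list, and 3 on each side of the distance limit, of which 1 is not reported here. Other settings tried were 200 bp of overlap, equal list length, a window of 500 bp on each side of the midpoint, 10 kb of distance, the ends of every gene, a threshold of 5 on −log10 q, each list left out, membership by the first CUT&Tag list alone and a replicate block.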

Additional observations from a re-analysis of the deposited data

How the results depend on the processing

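Values are differences in the mean share of members with a peak, in percentage points. HDAC6 ChIP (-36.1) was -0.0599 at equal list length and -0.210 at a −log10 q of at least 5, and pan-acetyl (41.1) was 0.449 and 5.21. Equal length leaves 235 and 1418 peaks a list, so by construction few members can hold a peak in either group. PolII shHDAC6 against shCtrl moved between 0.150, 3.86 at the q threshold, 2.13 at equal length and, reversed, -0.677 for members over 5 kb from every gene's ends. ATAC NextA against Ctrl (-1.72) was -0.160 at the q threshold, -1.28 with 200 bp of overlap and -3.67 at equal length. ATAC shHDAC6 against shCtrl was -0.959 at equal length. Members numbered 960 with every gene's ends and 175 at the q threshold. The difference in PolII Ctrl between members and regions without HDAC6 was 54.6, with 42.7 within quartiles of width and 42.1 in unannotated regions (chosen after seeing the data). The causes were not tested.

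Leaving out 1 list each, or the second CUT&Tag list from the choice of members (chosen after seeing the data; PolII shHDAC6 reversed to -0.633, PolII at members 41.6), gave -62.4 to -9.83 for HDAC6 ChIP, 27.5 to 54.8 for pan-acetyl, -5.90 to 6.14 for PolII NextA, -0.633 to 0.749 for PolII shHDAC6, -1.99 to -1.53 for ATAC NextA and -5.93 to -2.94 for ATAC shHDAC6. It gave 1694 to 2815 members, 41.6 to 62.4 for PolII at members against regions without HDAC6, 8.65 to 53.7 for HDAC6 ChIP Ctrl and 27.1 to 47.0 for pan-acetyl NextA. Replicate numbers pair the antibodies in HDAC6 ChIP, with differences of -60.6 (CST) and -11.7 (Novus), and the labels give no other pairing. With the replicate number as a block, the mean of pair differences equals the unblocked value by construction: -36.1, 41.1, 0.120, 0.150, -1.72 and -4.25. Same-numbered deviations correlated at 0.514 for PolII NextA and between -0.0892 and 0.0739 elsewhere. Depth is not given, so a missing peak limits what can be said.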

Other observations

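HDAC6 ChIP and PolII peaks in control cells were compared between quartiles of the members' CUT&Tag percentile. From the lowest to the highest quartile of CUT&Tag percentile, the Ctrl CST list marked 234 of 417, 250 of 417, 275 of 417 and 316 of 418 members. The Ctrl Novus list marked 41, 50, 41 and 65 of them, the first Ctrl PolII list 240, 231, 279 and 322, and the second 292, 306, 329 and 346. The highest quartile had the most in each of the 4 lists, and the order below it differed between lists. The quartiles rest on the CUT&Tag lists that chose the members, and width and ATAC percentile were not held fixed. These counts are therefore description only. By annotation, the median CUT&Tag percentile was 80.4 at other small RNA genes, 73.7 at pseudogene ends, 68.2 at inner starts, 65.9 at lncRNA starts and 53.9 at tRNA genes.

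A member at TALAM1, the antisense partner of the nuclear lncRNA MALAT1, belonged to a run of 4 members on chromosome 11 (65471380 to 65508993) and was among the 5 widest. Its PolII peak was in all 8 lists, at folds of 12.4 and 9.33 with NextA against 13.9 and 7.78 in Ctrl, and at 2.53 and 2.45 with shHDAC6 against 4.61 and 4.85 in shCtrl. A fold belongs to its own list, and no comparison between lists is drawn from it. Strand is not given by these lists, so signal of MALAT1 and TALAM1 cannot be told apart.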
